A study of Mus musculus with 30 samples.

Results

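Extrasynaptic diaphragm of control mice was compared between 26 and 15 weeks of age. The members are 7 of the 30 libraries of the series, chosen by their labels alone: 4 libraries at 26 weeks (animals AH080, AH081, AH095 and AH097, replicates 1 to 4) and 3 at 15 weeks (AH109, AH117 and AH118, replicates 1 to 3). The extrasynaptic piece is the muscle without neuromuscular junctions. All 7 animals were male and carried BACfxAR121, the transgene that models SBMA, spinal and bulbar muscular atrophy, in mice. They also carried HSA-Cre, a recombinase driven by the promoter of skeletal muscle actin, and are called muscle-rescued littermate controls in the labels. They are therefore not wild-type mice: the recombinase acts in skeletal muscle, and other cells keep the transgene. SBMA animals of the same series carried BACfxAR121 without HSA-Cre, with 4 extrasynaptic libraries at each age. A perisynaptic library, from muscle with junctions, was made from each of the same 7 control animals, so that it is a second measurement of the same mice and adds no animal. The human transgene was not analysed here.

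The diaphragm is the main muscle of breathing, works throughout life and is built mostly of fast oxidative fibres with a minority of slow fibres. Muscle fibres keep their contractile proteins folded with cytosolic heat shock proteins, which are induced by heat shock factors binding to heat shock elements in promoters. Proteins that enter the endoplasmic reticulum are folded by a separate set of chaperones, which the unfolded protein response induces partly through the ER stress element.

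Total counts of the 7 libraries ranged from 21980708 to 34694446. Skeletal muscle markers were abundant (Acta1 between 23084 and 29968 CPM). Chrne, the adult subunit of the acetylcholine receptor of the junction, was nearly absent. It was between 0.321 and 0.727 CPM, against 18.4 to 36.4 CPM in the perisynaptic libraries of these animals. Chrnd, another subunit, was at 0.938 to 2.18 CPM against 20.2 to 36.1 CPM. Other junction genes were less depleted: Ufsp1 was at 4.89 to 6.97 CPM against 14.7 to 36.5 CPM. Musk was not depleted, at 13.7 to 55.3 CPM against 13.4 to 60.5 CPM. Ages were not separated on the first 2 principal components, which held 27.2% and 19.3% of the variance. The labels name no batch. The 26-week animals fall into a pair of runs of animal numbers (AH080 and AH081, AH095 and AH097) and the 15-week animals have higher numbers, so age and the order of these numbers cannot be told apart.

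The transcriptome of control extrasynaptic muscle differed little between 15 and 26 weeks. edgeR tested 15526 genes by quasi-likelihood, and 0 passed an adjusted p of 0.05 (0%), and the smallest adjusted p was 0.130. At an unadjusted p under 0.05 there were 1019 genes (6.56%), of which 500 were higher (3.22%) and 519 lower (3.34%) at 26 weeks. DESeq2 called 51 genes (0.328%), 30 higher (0.193%) and 21 lower (0.135%). All 26-week libraries lay above all 15-week libraries in 444 genes (2.86%) and below them in 368 (2.37%). The median log2 fold change over all genes was -0.0042, with quartiles at -0.11 and 0.10. The 95% interval of the fold change lay wholly inside a log2 value of -1 to 1 for 13009 genes (83.8%), and for 11455 of the 11913 genes at 2 CPM or more (96.2%), so changes over 2-fold were outside the interval for most genes of that level.

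The count of 0 moved with single libraries and with the choice of 26-week animals. Without 26-week replicate 2, edgeR called 16 genes, 13 higher and 3 lower. Without 15-week replicate 3 it called 2, Pde4c higher and Atp1b2 lower. With 26-week replicates 3 and 4 alone against the 15-week animals it called 59 genes, 50 higher and 9 lower. Of these, 20 belong to the lists of heat shock proteins and the unfolded protein response. The lists hold 16 and 26 tested genes, of 15526 in the main fit. Replicates 3 and 4 had the highest levels of both lists, so this count is no separate evidence on them. With replicates 1 and 2 alone edgeR called 0 genes. With no filter on low counts it called 5, which were Chrna4 and mt-Rnr2 higher and Atp1b2, Adamts20 and Cdkn1a lower. Scaling by total counts alone gave 11, all higher.

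The 10 genes of smallest p at 2 CPM or more are given as a description, since none passed the adjusted threshold in edgeR (adjusted p 0.130 to 0.157). Each of them was called by DESeq2, and in each the libraries of the 2 ages did not overlap. Cdkn1a (chr17:29090976-29100727, GRCm38), which encodes the cell cycle inhibitor p21, stood at 63.9, 52.4 and 56.6 CPM at 15 weeks and at 37.0, 27.2, 35.03 and 33.7 CPM at 26 weeks, a log2 fold change of -0.79 ± 0.13 (SE). Every 26-week library was thus below every 15-week one. The change was -0.69 in the perisynaptic libraries of the same animals and -0.32 in SBMA extrasynaptic muscle, where Cdkn1a started lower, at 30.4 ± 3.07 CPM (SD, n = 4). The genotype by age difference of Cdkn1a did not pass the edgeR test (adjusted p 0.206).

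Chrna4, a subunit of neuronal nicotinic receptors, was at 3.26, 2.90 and 4.08 CPM at 15 weeks and at 5.93, 5.90, 11.04 and 8.49 CPM at 26 weeks (log2 1.20 ± 0.20). It was higher at 26 weeks in all 4 libraries, and the same difference was 1.26 in perisynaptic muscle and 1.19 in SBMA extrasynaptic muscle, where it was called (edgeR adjusted p 0.000359). Atp1b2, the second beta subunit of the sodium pump, was at 34.2, 42.2 and 24.8 CPM at 15 weeks and at 17.7, 22.1, 18.9 and 16.4 CPM at 26 weeks (log2 -0.85 ± 0.15). The ages did not overlap, and 15-week replicate 3 lay closest to the 26-week libraries. In SBMA muscle Atp1b2 differed by -0.16 between the ages.

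Hacd1, an enzyme of very-long-chain fatty acid synthesis that is active in muscle, was at 21.2, 23.4 and 23.7 CPM at 15 weeks and at 16.6, 17.6, 18.2 and 16.8 CPM at 26 weeks. Its difference was small and its spread narrow (log2 -0.40 ± 0.08). Adamts20, a secreted metalloproteinase, was at 8.61, 13.8 and 9.62 CPM and then at 5.60, 4.91, 7.27 and 6.02 CPM (log2 -0.84 ± 0.16). Nle1, which acts in ribosome assembly, was at 5.19, 8.26 and 7.74 CPM and then at 16.4, 11.2, 22.5 and 16.5 CPM (log2 1.24 ± 0.24). Both genes had almost the same difference in perisynaptic muscle, -0.86 for Adamts20 and 1.24 for Nle1, and a smaller one in SBMA muscle, -0.16 and 0.23. 1600020E01Rik, annotated as an antisense RNA, was at 3.90 to 4.44 CPM and then at 6.07 to 7.28 CPM (log2 0.69 ± 0.13). The strand setting of the counting is not given in the sources used here, so its reads cannot be told apart from those of its partner gene.

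Clec2d, a C-type lectin that is a ligand of receptors on natural killer cells, was the only gene of these 10 that the edgeR genotype by age test called. In control muscle it was at 47.3, 52.4 and 47.6 CPM at 15 weeks and at 62.6, 61.5, 63.2 and 66.6 CPM at 26 weeks (log2 0.37 ± 0.07). In SBMA muscle it was at 29.8 to 34.2 CPM at 15 weeks and at 21.3 to 23.8 CPM at 26 weeks (log2 -0.49 ± 0.07). The 4 groups did not overlap, and the difference between the genotypes was -0.86 ± 0.10 (edgeR adjusted p 0.000319).

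**Figure D1:**
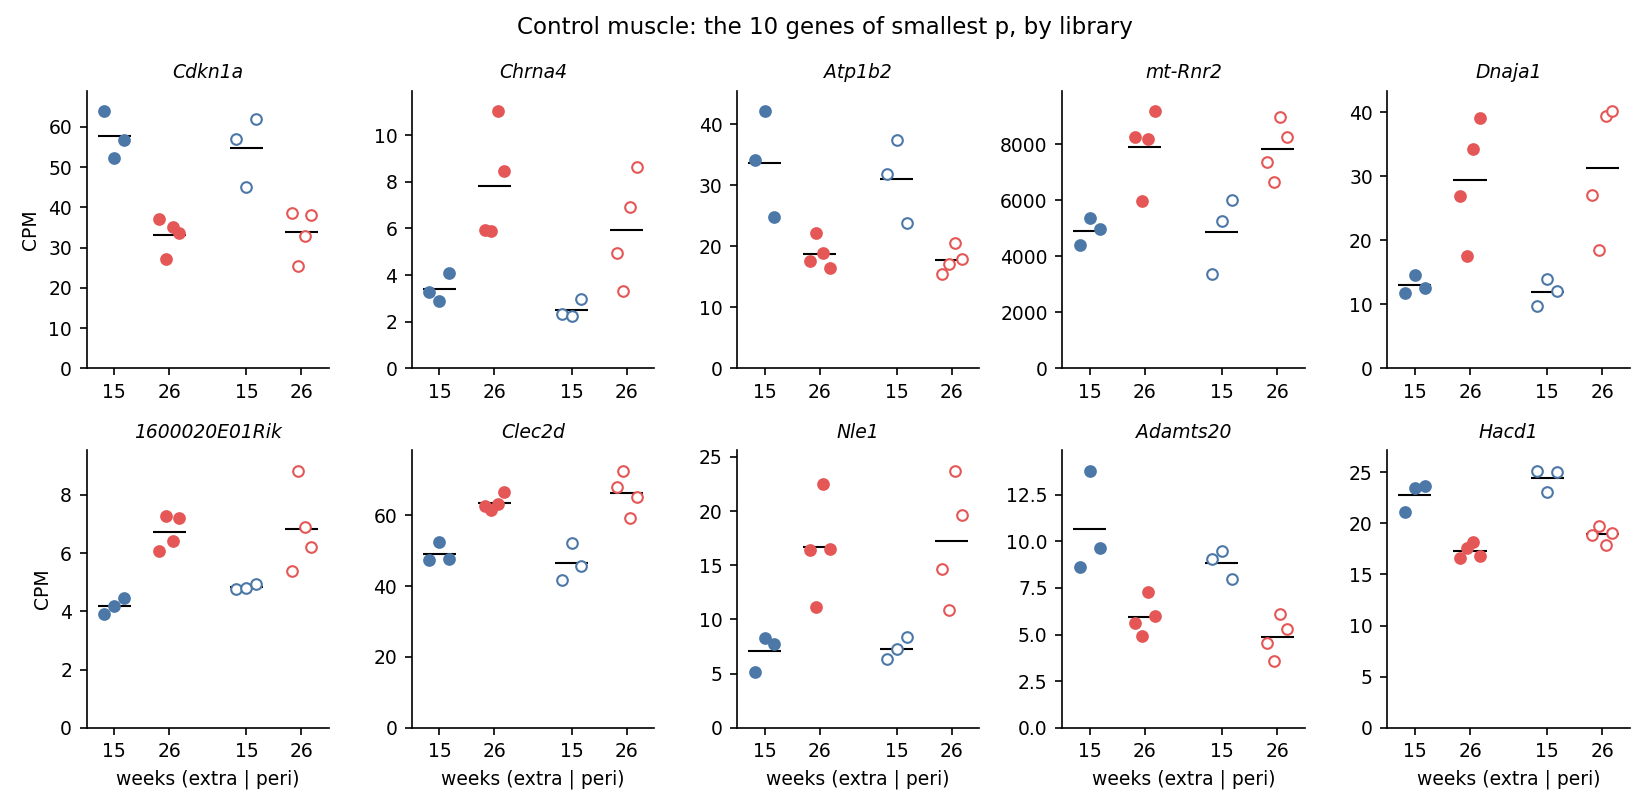
Levels in CPM (vertical axes, from 0) of the 10 genes of smallest p in control muscle at 15 and 26 weeks; filled points are extrasynaptic and open points perisynaptic libraries of the same animals, and bars are means. In every panel the filled points of the 2 ages are apart, for example 52.4 to 63.9 against 27.2 to 37.0 CPM for Cdkn1a.

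Cytosolic heat shock genes stood mostly higher at 26 weeks. Of 16 members tested, 12 were higher and 0 lower at an unadjusted p under 0.05, 4 were called higher by DESeq2, and 5 lay above all 15-week libraries in every 26-week library, against 3.22%, 0.193% and 2.86% of all genes. The median log2 fold change over the list was 0.37. edgeR called 0 members at the adjusted threshold. The promoters of the 3 members below are shown because they hold the paired heat shock element. They are the 150 bases before the start of the gene on its own strand (RefSeq, GRCm38.p6), with the element in capitals, which is GAA, any 2 bases and TTC, or TTC, any 2 bases and GAA: Dnaja1 at chr4:40722318-40722467 on the plus strand, Hspa1a at chr17:34972157-34972306 on the minus strand and Hsph1 at chr5:149636337-149636486 on the minus strand.
Dnaja1: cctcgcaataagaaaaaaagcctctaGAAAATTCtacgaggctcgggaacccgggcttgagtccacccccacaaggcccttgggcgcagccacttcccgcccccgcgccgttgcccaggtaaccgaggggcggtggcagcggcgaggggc
Hspa1a: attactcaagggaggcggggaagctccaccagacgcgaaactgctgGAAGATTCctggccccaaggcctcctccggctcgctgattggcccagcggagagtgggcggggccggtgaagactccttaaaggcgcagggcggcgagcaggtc
Hsph1: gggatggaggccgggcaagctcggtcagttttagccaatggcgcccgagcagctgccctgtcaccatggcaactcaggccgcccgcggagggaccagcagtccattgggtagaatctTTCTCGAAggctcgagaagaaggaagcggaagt
Of the 16 listed genes, 12 have a window in the RefSeq table, from 250 bases before to 50 after the start. A paired element is held by 9 of these 12, against 4946 of all 32851 windows (15.1%). The list was counted by gene, with a match in any window of the gene, and the whole table by window, so the units differ. Both strands were read, and the pair is part of any longer run of the element. A match is a description of the letters and no evidence of binding.

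Dnaja1, a co-chaperone of the Hsp70 family, was at 11.8, 14.5 and 12.5 CPM at 15 weeks and at 26.8, 17.5, 34.2 and 39.1 CPM at 26 weeks (log2 1.19 ± 0.21). Hsp90aa1, the inducible cytosolic Hsp90, was at 13.9, 18.03 and 16.6 CPM and then at 36.9, 21.5, 52.6 and 61.5 CPM (log2 1.42 ± 0.27, DESeq2 adjusted p 0.000197). In both genes all 26-week libraries were above the 15-week ones, and replicate 2 was the closest to them. Hspa1a, the inducible Hsp70, was at 6.11, 5.71 and 7.10 CPM and then at 15.1, 6.30, 40.6 and 44.2 CPM, so that replicate 2 lay within the 15-week range (log2 2.08 ± 0.55). Its neighbour Hspa1b (log2 2.18) is a near-identical copy, and how reads were shared between them is uncertain. Hspa8, the constitutive Hsp70, was at 190 to 226 CPM and then at 314, 224, 376 and 370 CPM (log2 0.59). Hsph1, a nucleotide exchange factor for Hsp70, had a log2 fold change of 0.75 and Dnajb1, another Hsp70 co-chaperone, 0.73. Stip1, which passes clients from Hsp70 to Hsp90, was at 105, 130 and 123 CPM and then at 167, 136, 174 and 186 CPM (log2 0.48 ± 0.11, DESeq2 adjusted p 0.0375), and was named after its values were seen.

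The unfolded protein response list of 26 genes had a median of 0.31, with 15 members higher and 0 lower at an unadjusted p under 0.05, 8 above all 15-week libraries and 2 called by DESeq2, against 3.22%, 2.86% and 0.193% of all genes. The promoters of 3 members are shown because they hold the ER stress element, CCAAT followed after any 9 bases by CCACG, on either strand and in capitals, within the 150 bases before the start (RefSeq, GRCm38.p6): Hspa5 at chr2:34771940-34772089 on the plus strand, Hsp90b1 at chr10:86705445-86705594 on the minus strand and Creld2 at chr15:88819496-88819645 on the plus strand.
Hspa5: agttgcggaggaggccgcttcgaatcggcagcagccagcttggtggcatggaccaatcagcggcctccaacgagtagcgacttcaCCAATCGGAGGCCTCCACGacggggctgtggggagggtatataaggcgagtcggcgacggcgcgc
Hsp90b1: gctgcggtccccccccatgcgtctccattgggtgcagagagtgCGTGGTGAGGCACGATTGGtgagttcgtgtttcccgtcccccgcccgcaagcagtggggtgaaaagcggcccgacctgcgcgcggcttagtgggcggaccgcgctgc
Creld2: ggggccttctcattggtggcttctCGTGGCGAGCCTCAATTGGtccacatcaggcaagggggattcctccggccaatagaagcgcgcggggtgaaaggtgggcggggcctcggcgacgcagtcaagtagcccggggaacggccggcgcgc
Of the 26 genes, 22 have a window and 8 of these hold the element, against 39 of all 32851 windows (0.119%). Here too the list was counted by gene and the whole table by window.

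Hspa5, the main Hsp70 of the endoplasmic reticulum, was at 380, 259 and 356 CPM at 15 weeks and at 361, 335, 633 and 828 CPM at 26 weeks (log2 0.70). Replicates 1 and 2 at 26 weeks lay within the 15-week range and replicates 3 and 4 far above it. Hsp90b1, the Hsp90 of this compartment, was at 221, 209 and 226 CPM and then at 272, 239, 369 and 474 CPM (log2 0.63). Creld2, a disulphide isomerase, was at 7.16, 9.30 and 11.3 CPM and then at 11.9, 11.3, 21.1 and 19.1 CPM (log2 0.79). Pdia3, another disulphide isomerase, was at 118, 102 and 114 CPM and then at 135, 129, 175 and 192 CPM (log2 0.50, DESeq2 adjusted p 0.0372). Sdf2l1, a cochaperone of Hspa5, was at 6.23, 5.58 and 6.64 CPM and then at 10.9, 6.75, 15.1 and 14.2 CPM (log2 0.94, DESeq2 adjusted p 0.0394). In these genes too, replicates 3 and 4 held the highest values.

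Both chaperone lists differed between the 2 runs of 26-week animals. Animals within a run differed too: the heat shock list stood at 0.05 in replicate 1 and at -0.26 in replicate 2, relative to the mean of the control animals. Run and single animals therefore cannot be told apart. The median of the heat shock list was 0.29 with replicates 1 and 2 alone and 0.63 with replicates 3 and 4 alone, and that of the unfolded protein response list was 0.14 and 0.58. The perisynaptic pieces of the same animals had medians of 0.44 and 0.41. For Hspa1a, 26-week replicate 2 was again the lowest of its age at 8.93 CPM and replicates 3 and 4 the highest at 47.2 and 54.2 CPM. In SBMA extrasynaptic muscle the heat shock list had a median of 0.54, and 11 of 16 members were called higher at 26 weeks against 6.51% of all genes. The unfolded protein response list had a median of 0.06 there, with 1 of 26 called. The genotype by age test called 0 members of either list in edgeR, against 1.76% of all genes. At that share, a count of 0 says little for lists of 16 and 26 genes.

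**Figure D2:**
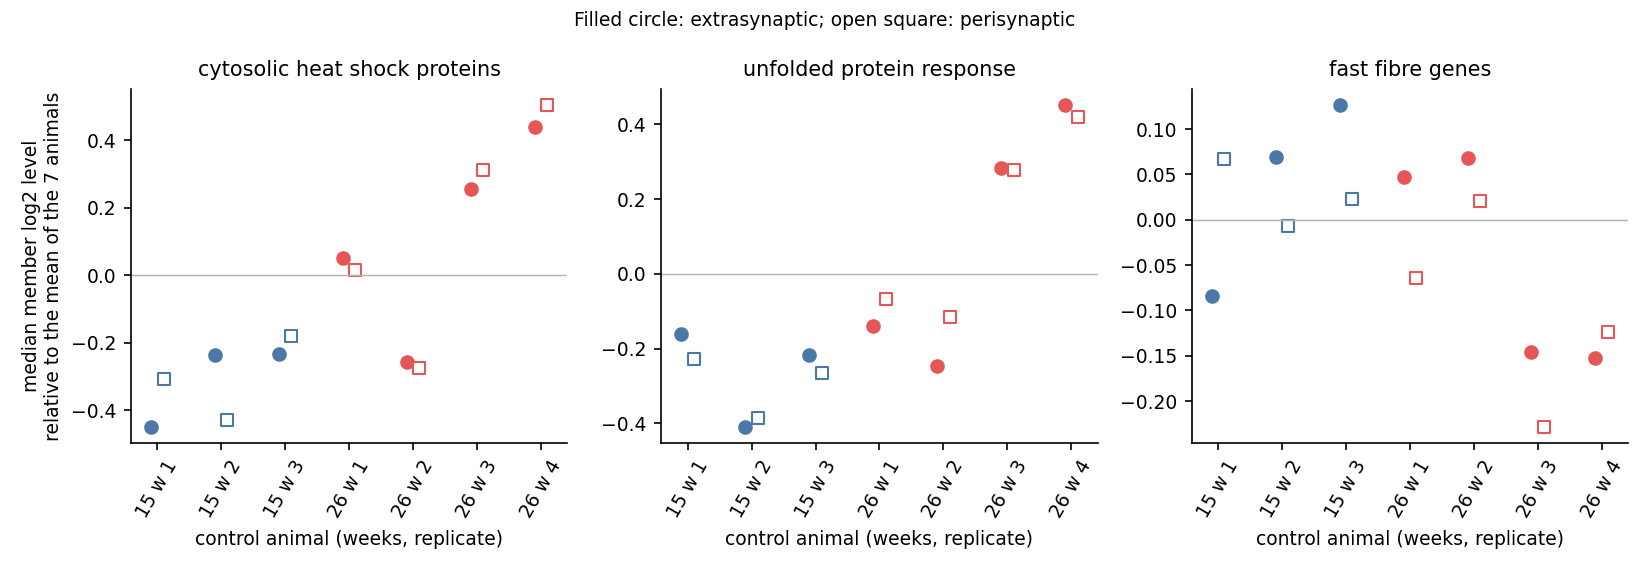
Median log2 level of 3 gene lists in each of the 7 control animals, relative to the mean over these animals (vertical axes), with filled circles for extrasynaptic and open squares for perisynaptic libraries. Heat shock genes were at 0.25 and 0.44 in 26-week replicates 3 and 4 and at -0.26 in replicate 2, within the range of the 15-week animals, -0.45 to -0.23.

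Of 35 genes of the matrix and of collagen processing, 5 were higher and 2 lower at an unadjusted p under 0.05. DESeq2 called 3, all higher. The shares over all genes were 3.22% higher and 3.34% lower at that p, and 0.193% called higher by DESeq2. P4ha1, a subunit of collagen prolyl hydroxylase, was at 41.7, 49.6 and 47.7 CPM at 15 weeks and at 74.8, 57.5, 116 and 115 CPM at 26 weeks (log2 0.97, DESeq2 adjusted p 0.0103). Its paralog P4ha2 was at 35.2, 27.2 and 34.7 CPM and then at 42.0, 44.1, 51.5 and 52.1 CPM (log2 0.55, DESeq2 adjusted p 0.0338). Serpinh1, the collagen chaperone Hsp47, was at 145, 181 and 178 CPM and then at 263, 195, 325 and 282 CPM (log2 0.67, DESeq2 adjusted p 0.0390). All 3 lay above the 15-week libraries in every 26-week library. In contrast, 23 of 25 collagen chains had a negative log2 fold change, with a median of -0.24. Of the 25 chains 5 were lower at an unadjusted p under 0.05, against 3.34% of all genes, and 0 were called by either tool. Col1a1 was at 275, 405 and 324 CPM and then at 315, 238, 284 and 160 CPM (log2 -0.43), Col1a2 had a log2 fold change of -0.27 and Col3a1 one of -0.45, all with overlapping groups. These values moved with 15-week replicate 2, where the summed level of the collagen list was highest at 3777 CPM: without it they were -0.26, -0.12 and -0.19 for Col1a1, Col1a2 and Col3a1. Without 26-week replicate 4, where that sum was lowest at 1861 CPM, they were -0.26, -0.17 and -0.30. Sparc, a matrix protein that binds collagen, had a log2 fold change of -0.25. Eln, which encodes elastin, was at 82.9, 110 and 110 CPM and then at 67.6, 58.1, 64.6 and 43.5 CPM (log2 -0.79), with no overlap between the ages.

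Of 16 fast-fibre genes 0 were higher and 5 lower at an unadjusted p under 0.05, against 3.34% lower of all genes. Of these genes 4 lay below all 15-week libraries, against 2.37%, and the median was -0.06. Myh4, the myosin heavy chain of the fastest fibres, was at 11436, 6617 and 7080 CPM at 15 weeks and at 1351, 3004, 5176 and 3401 CPM at 26 weeks (log2 -1.37 ± 0.56, edgeR p 0.0285, adjusted p 0.696). The groups did not overlap, and the SD was 2659 CPM at 15 weeks and 1570 CPM at 26 weeks. In perisynaptic muscle the difference was -1.41, and in SBMA extrasynaptic muscle it was -3.82 (edgeR adjusted p 0.00136); the genotype by age test did not call it (adjusted p 0.151). Actn3, the actinin of fast fibres, was at 1321, 940 and 1073 CPM and then at 669, 655, 564 and 475 CPM (log2 -0.91 ± 0.22, DESeq2 adjusted p 0.0135), and -0.94 in perisynaptic muscle. Pvalb, the calcium buffer of fast fibres, was at 1741, 1533 and 1436 CPM and then at 1227, 1354, 924 and 784 CPM (log2 -0.55).

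The other myosins overlapped between the ages. Myh1 was between 20098 and 28734 CPM in all 7 libraries (log2 0.10), and Myh2 between 7146 and 10954 CPM (log2 0.02), both fast chains. Myh7, the slow chain, had a log2 fold change of -0.52 and ranged from 890 to 2323 CPM. The embryonic chain Myh3 (log2 -0.28) and the perinatal chain Myh8 (0.11) stayed under 6 CPM. Of 12 slow-fibre genes 3 were lower at an unadjusted p under 0.05, with a median of -0.24. Of 26 genes of calcium handling and excitation coupling 8 were lower and 0 higher at that p, and 5 lay below all 15-week libraries. The shares over all genes were 3.34% lower and 2.37% below all 15-week libraries. Jph2, which holds the calcium store against the transverse tubule, was at 467, 555 and 513 CPM and then at 408, 357, 438 and 413 CPM (log2 -0.34 ± 0.09, DESeq2 adjusted p 0.0405). Atp2a1, the calcium pump of fast fibres, differed by -0.14. Mettl21c, a muscle protein methyltransferase, was at 2.37, 4.67 and 2.75 CPM and then at 1.37, 0.491, 0.363 and 0.390 CPM (log2 -2.35, DESeq2 adjusted p 0.00136), and -2.50 in SBMA muscle.

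Nuclear genes of the respiratory chain differed little between the ages. All 36 subunits of complex I had a positive log2 fold change, between 0.04 and 0.20. Of 38 subunits of complexes II to V, 37 had a positive value, and both medians were 0.12. Over all distinct gene symbols, 7583 of 15524 had a positive value. The libraries overlapped: the summed level of complex I was 9252 to 11167 CPM at 15 weeks and 9946 to 12053 CPM at 26 weeks. For complexes II to V it was 27517 to 33004 CPM and then 30197 to 34542 CPM. In both lists, 0 members lay above all 15-week libraries in every 26-week library. One complex I gene, Ndufab1, passed an unadjusted p of 0.05, and 0 were called by edgeR or DESeq2. The large and small mitochondrial ribosomal RNAs differed more. mt-Rnr2 was at 4422, 5359 and 4960 CPM and then at 8256, 5967, 8204 and 9193 CPM (log2 0.69 ± 0.13), and mt-Rnr1 had a log2 fold change of 0.53. Together they took 0.616% to 0.735% of counts at 15 weeks and 0.925% to 1.17% at 26 weeks. The exact permutation test over libraries gave p = 0.0571, two-sided, the smallest that 4 against 3 libraries allow, and the adjusted value over the 6 library measures tested was 0.114. The perisynaptic libraries of the same animals showed no overlap either, with 0.487% to 0.825% and 1.04% to 1.17%.

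Transcripts that resemble cytoplasmic ribosomal RNA differed in the other direction. Gm42418, a feature known to collect reads of ribosomal RNA, took 3.36%, 6.20% and 5.94% of counts at 15 weeks and 0.846%, 0.813%, 0.911% and 2.52% at 26 weeks (log2 -2.07 ± 0.70, edgeR adjusted p 0.580). The ages did not overlap (exact permutation test, two-sided p = 0.0571, again the smallest possible). In perisynaptic libraries the order was opposite, 1.03% to 1.31% at 15 weeks and 1.57% to 5.02% at 26 weeks. Among the 6 tested members of the list of ribosomal RNA-like and nuclear RNAs, 4 were lower at an unadjusted p under 0.05, against 3.34% of all genes. The median of the list was -0.85, against 0.81 in perisynaptic muscle. CT010467.1, a ribosomal RNA feature, had a log2 fold change of -2.37 (DESeq2 adjusted p 0.0134). Their part in the other results was not tested. When counts were scaled by totals alone, the median of all genes moved to 0.06 and the medians of the chaperone lists to 0.44 and 0.37.

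**Figure D3:**
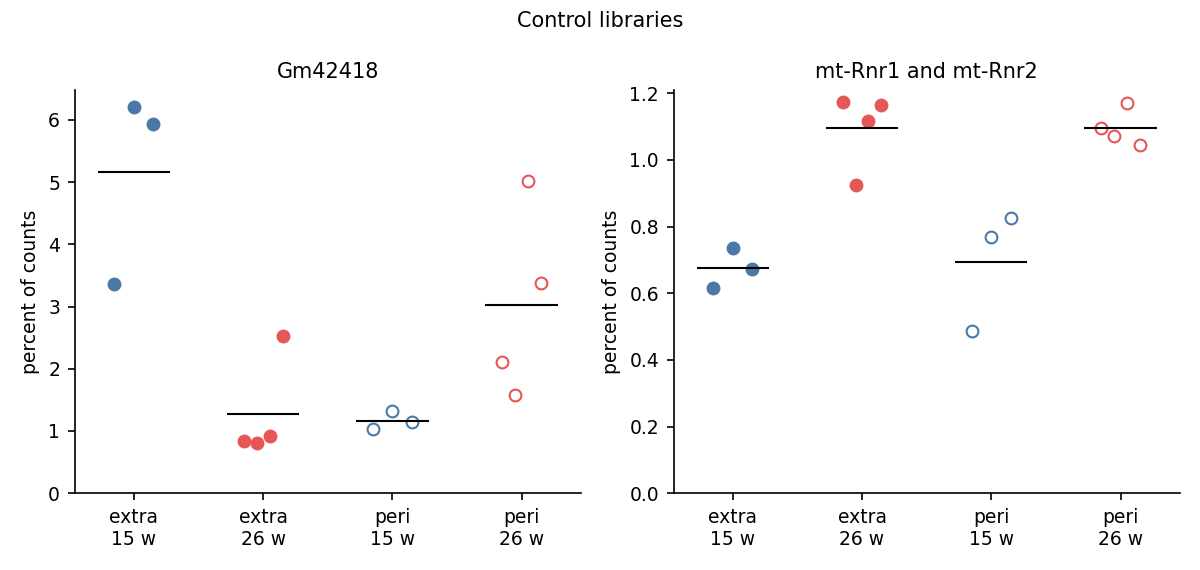
Percent of counts (vertical axes, from 0) assigned to Gm42418 and to the mitochondrial ribosomal RNAs in control libraries by piece and age; points are libraries and bars means. The Gm42418 share was 3.36 to 6.20% at 15 and 0.813 to 2.52% at 26 weeks in extrasynaptic muscle, with the opposite order in perisynaptic muscle.

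Markers of other cell types were checked in the same libraries. In bulk samples, fewer cells of a type and less RNA per cell cannot be told apart. Cpa3, a mast cell protease, was at 4.50, 5.27 and 3.62 CPM and then at 9.27, 5.72, 9.63 and 7.87 CPM (log2 0.86 ± 0.21, DESeq2 adjusted p 0.0378), and Mcpt4, another protease of these cells, had a log2 fold change of 0.67. In the perisynaptic pieces of the same animals the values were 0.21 for Cpa3 and 0.42 for Mcpt4. Of the 9 genes of the mast cell and granulocyte list 5 were higher and 2 lower at an unadjusted p under 0.05, against 3.22% and 3.34% of all genes, and edgeR called 0. The neutrophil genes S100a8 and S100a9 were those 2 lower members, with 15-week replicate 3 alone at 5.86 and 8.20 CPM and every other library under 0.9 CPM. Of the 12 Schwann cell genes tested 3 were lower at an unadjusted p under 0.05 and lay below all 15-week libraries, against 3.34% and 2.37% of all genes. The summed level of the list was 75.8 to 119 CPM at 15 weeks and 73.8 to 85.9 CPM at 26 weeks. Adipocyte genes had a median of -0.39 with 0 of 14 at an unadjusted p under 0.05, and Adipoq, an adipocyte hormone, ranged from 12.3 to 60.9 CPM. In the perisynaptic pieces the median of the list had the other sign, 1.09. With no filter on low counts the region by age test called Adipoq (-2.99), Plin1 (-3.01) and Cidec (-2.59), extrasynaptic minus perisynaptic, which the filtered edgeR test did not. Those calls rest on the unfiltered fit alone, whose limit is given with the region by age results below. Tendon genes had a median of -0.52, with 15-week replicate 2 the highest for Tnmd, a tendon cell protein, at 10.5 CPM and for the summed list at 578 CPM, against 200 to 335 CPM in the other 6 libraries. The 9 lymphocyte genes had a median of -0.77, 8 of them negative, and all overlapped. Their summed level was 172, 43.6 and 40.6 CPM at 15 weeks and 13.4, 20.3, 202 and 30.1 CPM at 26 weeks, high in 1 animal of each age. Endothelial genes were negative in 13 of 14 (median -0.16) and pericyte and smooth muscle genes in 10 of 11 (median -0.18). In each list 2 were lower at an unadjusted p under 0.05, against 3.34% of all genes. Summed levels overlapped, at 1442 to 1572 and then 1206 to 1776 CPM for endothelial genes. For pericyte and smooth muscle genes they were 1011 to 1198 and then 1016 to 1076 CPM. In the perisynaptic pieces the medians were 0.03 and -0.02. The part of these cells in the other results was not tested.

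Genes of the daily clock and of acute responses varied between animals as much as between ages. Of 19 clock genes 1 was higher at an unadjusted p under 0.05, against 3.22% of all genes, and the median was 0.06. Per2 was at 45.5, 11.2 and 29.6 CPM and then at 26.8, 58.7, 45.4 and 71.5 CPM (log2 0.81), while Arntl, which peaks at the opposite time of day, had a log2 fold change of -0.66 and Dbp one of 0.49. Without 15-week replicate 2 the values were -0.039 for Arntl, 0.24 for Dbp and 0.43 for Per2. With each library left out in turn they ranged from -1.03 to -0.039, from 0.24 to 0.67 and from 0.43 to 1.32. Per1 (-0.08) and Nr1d1 (0.06) were near 0. The immediate early genes Fos (0.26), Egr1 (0.14) and Nr4a1 (-0.15), the glucocorticoid target Fkbp5 (-0.47), and Pdk4 (-0.22) and Ucp3 (-0.17), which are linked to fat use in muscle, all had overlapping groups. The junction genes Chrna1 (0.08), Chrne (0.44, under 1 CPM) and Musk (0.41), the growth inhibitor Mstn (0.13) and the imprinted RNA H19 (-0.13) overlapped too. Igf2, a fetal growth factor, was at 3.42, 3.98 and 4.17 CPM and then at 2.50, 2.10, 3.13 and 2.57 CPM (log2 -0.58), without overlap. Prr32 was under 1 CPM in every control extrasynaptic library, without overlap between the ages. Its log2 fold change was 2.35 with a wide interval, 0.87 to 3.83. In SBMA extrasynaptic muscle Prr32 went from 1.89 to 9.34 CPM (log2 2.30, edgeR adjusted p 0.000170). Srxn1 and Hmox1, targets of the oxidative stress factor Nrf2, had log2 fold changes of 0.85 and 0.60, and 4 of 20 listed antioxidant genes were higher with 0 lower at an unadjusted p under 0.05, against 3.22% higher of all genes.

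**Figure D4:**
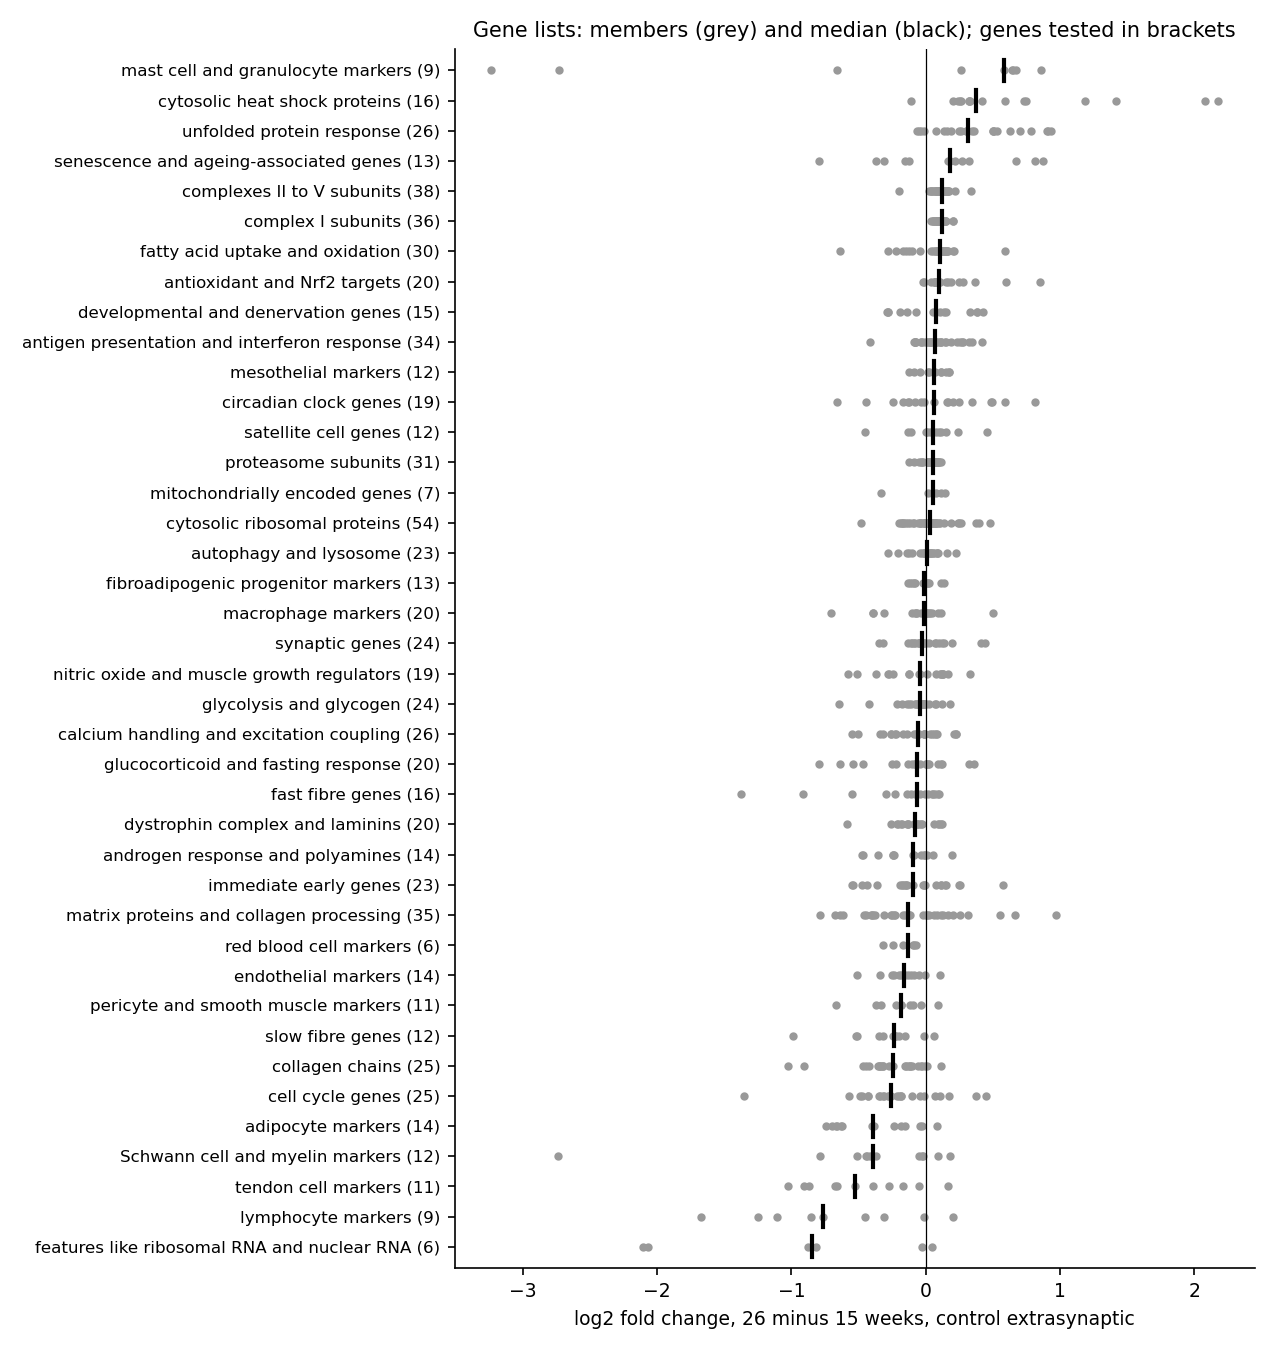
Log2 fold change between 26 and 15 weeks in control extrasynaptic muscle (horizontal axis) for the members of 40 gene lists (grey points), with the median of each list as a black bar and the number of genes tested in brackets. The mast cell and granulocyte, heat shock and unfolded protein response lists had medians of 0.58, 0.37 and 0.31, and the list of ribosomal RNA-like features -0.85.

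The same span of age gave a far larger difference in SBMA extrasynaptic muscle, where edgeR called 1872 genes (12.1%), 1010 higher (6.51%) and 862 lower (5.55%). The 2 comparisons share no library. The genotype by age test of edgeR, which asks where the change with age differed between SBMA and control, called 273 genes (1.76%). It called 107 with replicate number as a block, 649 with DESeq2 and between 117, without SBMA 15-week replicate 1, and 362, without control 26-week replicate 2, when 1 library was left out.

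Several of the genes with the largest genotype by age difference differed little between the ages in control muscle. Peg3 (log2 -0.26) and Zfp750 (0.82) did not overlap between the ages there, and Nmrk2 had a log2 fold change of 0.70. Krt80, a keratin, was at 7.40, 7.65 and 4.81 CPM and then at 5.51, 7.15, 7.22 and 9.40 CPM in control, and went from 12.9 ± 4.74 to 69.5 ± 25.5 CPM (SD, n = 4) in SBMA muscle. Peg3, an imprinted zinc finger gene, was at 37.5, 46.6 and 36.8 CPM and then at 34.9, 31.2, 36.8 and 31.9 CPM in control (log2 -0.26), and went from 58.8 ± 8.10 to 173 ± 12.9 CPM in SBMA (difference 1.82, edgeR adjusted p 3.51e-05). Aif1l (control -0.24, SBMA 1.94), Hectd2os (-0.14, 1.79) and A330074K22Rik (-0.54, 1.22) were the others called higher. Hectd2os is an antisense RNA and carries the same limit as above.

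Nmrk2, a muscle kinase of the NAD precursor nicotinamide riboside, had the largest negative genotype by age difference. It was at 104, 94.1 and 142 CPM at 15 weeks and at 187, 234, 142 and 176 CPM at 26 weeks in control (log2 0.70, edgeR adjusted p 0.485), with replicate 3 inside the 15-week range. In SBMA muscle it went from 61.5 ± 12.3 to 11.5 ± 3.63 CPM (log2 -2.43), a difference between genotypes of -3.13 ± 0.32 (edgeR adjusted p 0.000263). 2310065F04Rik (control -0.0041, SBMA -2.84), Lgr6 (0.13, -2.49), Rmi2 (-0.16, -2.75) and Zfp750 (0.82, -1.57) were the others. Of the genes already described, Myh2 (control 0.02, SBMA -1.06, edgeR adjusted p 0.00804), Pvalb (-0.55, -2.04, 0.0145), Atp2a1 (-0.14, -0.58, 0.0453), Myh8 (0.11, 1.54, 0.00955) and Igf2 (-0.58, 0.44, 0.0403) were called too. Igsf1 was at 1.93 to 2.95 CPM in all control libraries and went from 12.4 to 33.2 CPM in SBMA (adjusted p 0.0242). Of 16 fast-fibre genes, 14 were called lower with age in SBMA muscle, against 5.55% of all genes, and 5 by the genotype by age test, against 1.76%.

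Perisynaptic muscle of the same 7 animals gave the same count as the extrasynaptic piece: 0 of 15735 genes passed the edgeR test (0%), 890 had an unadjusted p under 0.05 (5.66%) and DESeq2 called 40. The test of whether the change with age differed between the pieces, with a term for each animal, called 0 of 16138 genes in edgeR (0%). Without 26-week replicate 4 it called 1, mt-Tq, a mitochondrial transfer RNA. With no filter on low counts it called 86, of which 77 had a lower log2 change in the extrasynaptic piece than in the perisynaptic one. The 86 included abundant features. Gm42418 had a log2 difference of -3.46 in both fits, with an edgeR adjusted p of 0.994 filtered and 8.01e-207 unfiltered. The calls of the unfiltered fit are therefore not taken as differences between the pieces.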

How the data were processed

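Bulk RNA-seq was made from diaphragm pieces of 15 male mice, 2 libraries each. RNA was extracted with a column kit and DNA digestion, and libraries came from a stranded mRNA kit, per the labels' protocols. The authors deposited one table of raw counts, made with featureCounts on mm10, per the submitters' processing notes. For the aligner, annotation release and strand setting, no source used here gives an entry. Of 33076 gene IDs, 33064 matched GENCODE vM21 (GRCm38), 746 of them without their version. Promoters came from RefSeq windows of GRCm38.p6.

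The 15 extrasynaptic libraries were fitted with a mean per genotype and age, after filterByExpr (minimum count 10, minimum total 15), with TMM factors and the robust quasi-likelihood test of edgeR 4.0.16 (limma 3.58.1, R 4.3.3). This fit had 11 residual degrees of freedom. The perisynaptic libraries had a fit of their own, and the 2 pieces were compared in a joint fit of all 30 libraries with a term per animal. Genes at a Benjamini-Hochberg adjusted p under 0.05 were called, with no fold minimum; tests are two-sided. DESeq2 1.42.0 was the other tool and gave no adjusted p for 3 genes. Levels are CPM on TMM-scaled libraries; the prior count for log2 CPM was 2. Errors cover the spread between animals; no molecular identifiers are recorded, so reads may repeat a molecule. The fits were tested on simulated data.

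Named genes were the 10 of smallest p at 2 CPM or more, the 5 largest each way in the genotype by age test and 33 fixed genes; others are stated or were chosen after their values were seen. The members, gene lists and tests were chosen with earlier results of these data known. Alternatives were DESeq2, RLE factors, total counts, no filter, a replicate block, only the 7 control libraries, each run of animal numbers, and each library left out.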

Additional observations from a re-analysis of the deposited data

Results flagged for a closer look

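Of 96 groups of 4 libraries checked for a sample far from the others, 6 were flagged; chance flags about 1 in 20. In control extrasynaptic muscle at 26 weeks Mettl21c was highest in replicate 1 at 1.37 CPM. Replicate 4 was the highest for Myh2 at 10954 CPM, for Gm42418 at 28462 CPM and 2.52% of counts, and for total counts at 34694400, to 6 digits. Zfp750 was lowest in SBMA replicate 3 at 15 weeks, at 2.01 CPM.

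The change with age differed between the genotypes by the edgeR interaction test, SBMA minus control, in 17 described genes. The difference was positive for Krt80 (2.27), Aif1l (2.18), Hectd2os (1.93), Peg3 (1.82), A330074K22Rik (1.76), Myh8 (1.43), Igsf1 (1.21) and Igf2 (1.01). It was negative for Nmrk2 (-3.13), 2310065F04Rik (-2.83), Lgr6 (-2.62), Rmi2 (-2.59), Zfp750 (-2.39), Pvalb (-1.49), Myh2 (-1.08), Clec2d (-0.86) and Atp2a1 (-0.44).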

How the results depend on the processing

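The 0 genes called by edgeR between 26 and 15 weeks in control extrasynaptic muscle became 51 with DESeq2, 11 with total counts, 5 with no filter and 59 with 26-week replicates 3 and 4 alone. With each library left out the count ranged from 0 to 16; RLE factors, the 7 control libraries alone and replicates 1 and 2 alone gave 0. The genotype by age count of 273 became 649 with DESeq2 and 107 with the replicate block, and ranged from 117 to 362 with each library left out. Control perisynaptic calls became 40 with DESeq2. Region by age calls became 86 with no filter and ranged from 0 to 1 with an animal left out. The cause of these shifts was not tested.

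Deviations of same-numbered animals of the 2 ages had correlations of -0.31, 0.041 and -0.070. Over all pairs of a 15-week and a 26-week animal they ranged from -0.31 to 0.32. With so few animals these values cannot decide whether the numbers pair them. With replicate number as a block the control count stayed at 0, and Myh2 turned from 0.021 to -0.056.

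Log2 fold changes turned in sign for several named genes, most of them near 0 in the main fit. Musk was further from 0, at 0.41 in the main fit. With 26-week replicates 3 and 4 alone edgeR called it higher, at 0.95 (adjusted p 0.0117). With 26-week replicates 1 and 2 alone the values were -0.074 for Myh1, -0.18 for Myh2, -0.22 for Myh8, -0.14 for Chrna1, -0.46 for Musk, -0.34 for Mstn, -0.10 for Nr1d1, -0.51 for Fos and -0.34 for Egr1. With replicates 3 and 4 alone they were 0.11 for Per1, 0.15 for Pdk4 and 0.14 for Ucp3. With 1 library left out they ranged from -0.22 to 0.020 for Per1, -0.67 to 0.026 for Pdk4, -0.43 to 0.11 for Ucp3, -0.14 to 0.085 for Myh2, -0.015 to 0.22 for Myh8, -0.26 to 0.0023 for H19, -0.011 to 0.65 for Fos, -0.029 to 0.21 for Chrna1, -0.21 to 0.36 for Mstn, -0.24 to 0.37 for Nr1d1, -0.12 to 0.36 for Egr1 and -0.42 to 0.48 for Nr4a1. The number of animals, 4 against 3, limits what the test could call: the median 95% interval reached 0.31 on the log2 scale to either side, and the limit at an adjusted p is wider.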
